A study of Mus musculus with 6 samples.

Results

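The genes described here build and maintain the outer segment of photoreceptors and the cilium that carries it. They are 38 of the 21744 genes in the table, chosen by symbol for their known roles: outer segment structure, the visual cycle, guanylate cyclase and calcium control, carriers of outer segment proteins, the connecting cilium, the BBSome, and intraflagellar transport. All 38 were found, and all 38 were tested, being among the 15200 genes that averaged 0.1 FPKM or more. FPKM is the number of sequenced fragments scaled to transcript length and to the depth of the library. RNA-seq was done on retinas of postnatal day 7 (P7) mice on a mixed C57BL/6J; 129S6 background, with 3 control mice, 3 *Lhx4* null mice, and 1 library for each mouse. The paper defines its null mice as carrying a tdTomato knock-in allele of *Lhx4* over a loxP allele together with Six3-Cre, used to inactivate the gene in the retina. Its RNA-seq methods name these mice only as *Lhx4* null. The genotype of the control mice behind these libraries was given only as control. Retinas were dissected free of the pigment epithelium and were not sorted, so lower expression per cell and fewer cells of a type cannot be told apart in these libraries. In stained sections at P7, the paper saw no overt change in cell number in the outer nuclear layer, where photoreceptors lie. It counted fewer cells in the inner nuclear layer of null retinas.

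The outer segment is a modified primary cilium, packed with membrane discs that hold the visual pigment. It is joined to the cell body by the connecting cilium, which works as a transition zone, and its proteins arrive through intraflagellar transport, the BBSome, and lipid-binding carriers. In the mouse, outer segments form and elongate during the first postnatal weeks, and many of these genes are mutated in retinitis pigmentosa, Leber congenital amaurosis, cone-rod dystrophy, or Bardet-Biedl syndrome.

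The libraries of a group correlated with r from 0.982 to 0.992 across genes. The steps between the lowest FPKM values gave the relative depth of the libraries, which was 76.9% to 100% of the deepest library in the controls and 46.7% to 65.9% in the null libraries, so that depth and genotype were not independent. The targeted gene, *Lhx4*, measured 20.9, 23.8, and 19.1 FPKM in the control libraries, in replicate order. Libraries labelled *Lhx4* null held more, with 31.2, 30.3, and 29.0 FPKM. This direction goes against the label, and a gene-level value does not show which exons were read. The groups are therefore called control libraries and null-labelled libraries. Genes of bipolar cells, in which the paper found LHX4, ran the way the labels say. The paper also cites earlier studies that found *Lhx4* in cone photoreceptors. *Bhlhe23*, a bHLH factor needed by rod bipolar cells, had 10.2, 13.02, and 10.6 FPKM in the controls and 0.814, 0.563, and 0.830 FPKM in the null-labelled libraries (log2 fold change -3.78, SE 0.17, adjusted p = 0.000171 from limma). The retina carried its defining transcripts in every library: the 16 rod genes of a marker list summed to 6637 to 7518 FPKM in the controls and 5255 to 7021 FPKM in the null-labelled libraries.

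Log2 fold changes of the members were mostly below 0 and small, and none passed the corrected threshold in all 6 libraries. The log2 fold change, null-labelled minus control on the log2(FPKM + 0.1) scale, was below 0 for 32 members and above 0 for 6, with a median of -0.15 against 0.01 over all genes tested. At an unadjusted p under 0.05 in limma, 4 members were lower (*Rdh12*, *Rp1l1*, *Grk1*, and *Gucy2f*), where 3.55% of all genes tested were lower. *Guca1a* alone was higher, 1 of 38, where 4.6% of all genes were. After Benjamini-Hochberg adjustment over all 15200 genes, 0 members passed in limma, the smallest adjusted p being 0.206 for *Guca1a*, and 0.224% of all genes passed. All 3 null-labelled libraries lay below all 3 controls for 2 members, *Prom1* and *Unc119*, which held for 6.13% of all genes. They lay above for 1 member, *Guca1a*, which held for 8.1%. With 3 libraries against 3, an exact permutation test of a single gene cannot go below p = 0.1, the value for these 3 genes.

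**Figure D1:**
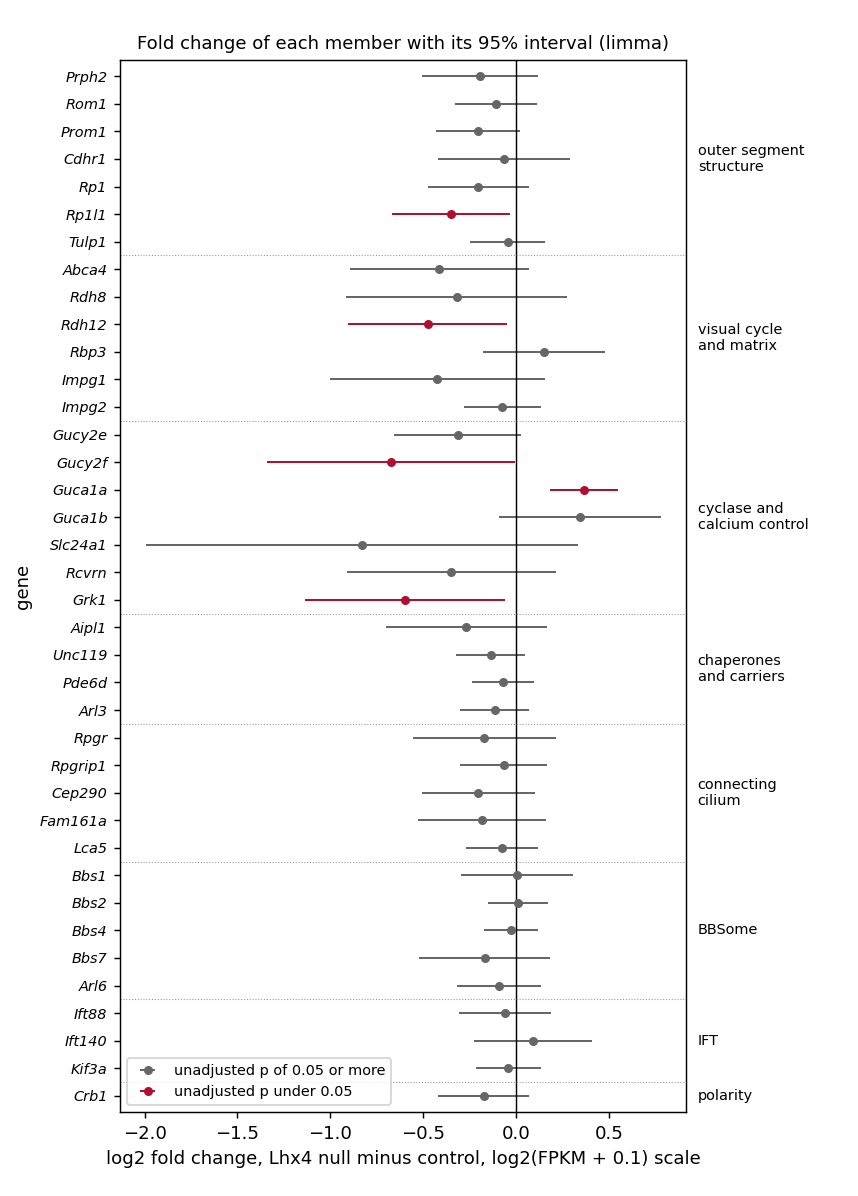
Log2 fold change (null-labelled minus control, log2(FPKM + 0.1) scale, x axis) of the 38 members (y axis, grouped by role), with 95% intervals from limma over 3 libraries per group; red marks an unadjusted p under 0.05. Most points lie left of 0, most intervals cross it, and *Guca1a*, at 0.36, is the single red point to the right.

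For most members, 1 null-labelled library lay at or above the level of the controls. Null-labelled replicate 2 was the lowest of the 6 libraries for 25 of 38 members and null-labelled replicate 3 for 9, while these libraries were the lowest for 19.4% and 18.6% of all genes. Both lay below every control for 25 members, against 14.2% of all genes. Null-labelled replicate 1 lay within the range of the controls for 21 members (42.9% of all genes) and above the other null-labelled libraries for 32 (32.3%). Among the controls, replicate 2 was the highest for 28 members and for 39.0% of all genes. For 21 members, control replicate 2 and null-labelled replicate 1 were the 2 highest of all 6 libraries, which was so for 12.7% of all genes. The spread within a group exceeded the ratio of the group means for 36 of 38 members, the exceptions being *Guca1a* and *Unc119*.

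**Figure D2:**
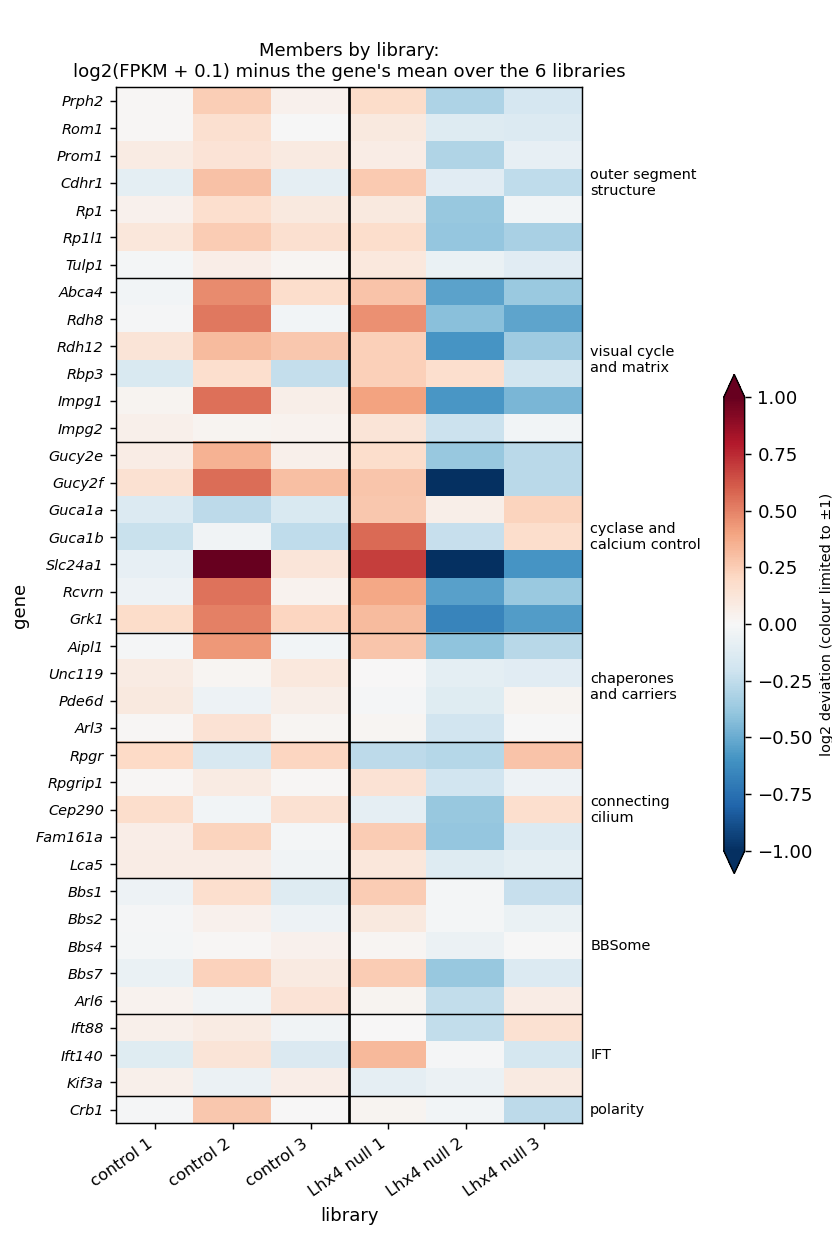
Deviation of log2(FPKM + 0.1) from the gene's mean over the 6 libraries (colour, limited to 1 in either direction) for the 38 members (rows, grouped by role) in each library (columns; the line divides the 3 controls from the 3 null-labelled libraries). Control replicate 2 and null-labelled replicate 1 are red for most outer segment, visual cycle, and calcium control genes, null-labelled replicates 2 and 3 are blue, and the BBSome and transport rows are pale.

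Single libraries decided how many members passed. Without null-labelled replicate 1, 16 members were lower at an unadjusted p under 0.05, among 6.03% of all genes, and 1 was higher, among 7.01%. *Grk1* then had a log2 fold change of -0.91 and an adjusted p of 0.0354 from limma, and it was the 1 member past that threshold. The other members lower in that fit were *Abca4*, *Aipl1*, *Bbs7*, *Fam161a*, *Gucy2e*, *Gucy2f*, *Impg1*, *Prom1*, *Prph2*, *Rcvrn*, *Rdh12*, *Rdh8*, *Rp1*, *Rp1l1*, and *Slc24a1*. In contrast, 0 members were lower at an unadjusted p under 0.05 in limma without control replicate 2, without control replicate 3, or without null-labelled replicate 2, fits in which 3.8%, 2.01%, and 2.62% of all genes were lower. Without null-labelled replicate 3, 2 members were lower, among 4.9% of all genes. *Guca1a* was higher at that p in each of these 4 fits, in which 4.24%, 2.49%, 2.91%, and 6.43% of all genes were higher, in the same order. The median over the members stayed below 0 throughout, at -0.20 without null-labelled replicate 1 and -0.06 without null-labelled replicate 2.

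Promoter sequences were read for all members that had an entry, whatever their fold change or library pattern. RefSeq promoters on GRCm38.p6, from 250 bases before the start site to 50 after, were given for 34 of the 38 members, but not for *Rp1*, *Rp1l1*, *Guca1b*, and *Rcvrn*. The letters TAATCC, bound by the photoreceptor homeodomain factors CRX and OTX2, were searched on both strands and stood in 9 of the 41 member promoters, against 7.06% of 32851 promoters. TAATTA, the core of sites for LIM-homeodomain factors such as LHX4, stood in the promoters of 2 members, *Abca4* and *Impg2*, and in 5.29% of all promoters. GTTGCCA, one arm of the X-box that RFX factors bind in ciliary genes, stood in those of *Bbs1* and *Ift88* and in 4.38% of all promoters. In *Abca4*, the 1 member with both TAATCC and TAATTA, the matches lay a few bases apart and did not overlap. Its TAATTA is not in capitals below. In 7 members a TAATCC match lay within the 100 bases before the start site, from 28 to 84 bases upstream, and these windows are shown with the matches in capitals. GGATTA is the same match on the other strand.
*Guca1a* (chr17:47400607-47400706, minus strand): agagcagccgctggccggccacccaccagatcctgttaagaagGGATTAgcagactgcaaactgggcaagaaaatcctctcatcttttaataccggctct
*Gucy2f* (chrX:142196937-142197036, minus strand): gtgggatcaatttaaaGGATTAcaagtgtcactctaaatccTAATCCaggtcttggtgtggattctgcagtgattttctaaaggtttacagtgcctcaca
*Gucy2e* (chr11:69237023-69237122, minus strand): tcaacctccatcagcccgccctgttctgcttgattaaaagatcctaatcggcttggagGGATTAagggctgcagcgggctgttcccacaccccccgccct
*Abca4* (chr3:122044360-122044459, plus strand): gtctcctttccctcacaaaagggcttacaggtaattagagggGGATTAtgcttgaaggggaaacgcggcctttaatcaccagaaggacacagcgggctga
*Rbp3* (chr14:33953903-33954002, plus strand): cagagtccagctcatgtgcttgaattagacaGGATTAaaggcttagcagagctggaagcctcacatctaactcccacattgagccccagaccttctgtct
*Aipl1* (chr11:72037510-72037609, minus strand): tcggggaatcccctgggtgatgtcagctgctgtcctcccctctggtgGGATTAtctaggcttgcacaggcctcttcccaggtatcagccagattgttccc
*Rpgrip1* (chr14:52110803-52110902, plus strand): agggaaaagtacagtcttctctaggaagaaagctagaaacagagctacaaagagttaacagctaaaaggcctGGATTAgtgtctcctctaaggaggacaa

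These 7 promoters belong to genes with log2 fold changes of either sign: *Guca1a* was at 0.36 and *Gucy2f* at -0.68, and *Rbp3* and *Abca4* were at 0.15 and -0.41. Differences between these genes were not tested. *Gucy2f* was the single member with a pair of matches in the window, at 84 and 59 bases before its start. By role, the match stood in 3 of the 5 cyclase and calcium control genes with a promoter, 2 of the 4 chaperones and carriers, 2 of the 6 visual cycle and matrix genes, 1 of the 5 connecting cilium genes, 1 of the 5 BBSome genes, and 0 of the 5 outer segment structure genes. A match is a description of letters and not a site of binding, and binding was not measured in these samples.

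The 7 genes of outer segment structure all had log2 fold changes below 0, from -0.35 to -0.05, with a median of -0.19. At an unadjusted p under 0.05 in limma, 1 of them was lower, where 3.55% of all genes tested were. *Prph2* (chr17:46910459-46924933, GRCm38), which encodes the tetraspanin peripherin that shapes the disc rim, had 457, 537, and 467 FPKM in the controls, in the order of replicates 1, 2, and 3 as for all genes below, and 516, 366, and 405 FPKM in the null-labelled replicates. The groups overlapped through null-labelled replicate 1, and the log2 fold change was -0.19 (SE 0.14, adjusted p = 0.732 from limma). *Rom1*, its partner in the rim, ranged from 401 to 448 FPKM in the controls and from 366 to 431 FPKM in the null-labelled libraries. *Rp1l1* is a microtubule-associated protein of the axoneme and a relative of *Rp1*. Its levels were 51.3, 56.5, and 53.2 FPKM in the controls and 53.7, 36.4, and 38.01 FPKM in the null-labelled libraries, so that replicate 1 again sat with the controls. Its log2 fold change was -0.35 (SE 0.14, adjusted p = 0.591 from limma). *Rp1* itself had 150 ± 6.48 FPKM (SD, n = 3) in the controls and 131 ± 21.3 FPKM in the null-labelled libraries.

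*Prom1*, a membrane protein at the base of the growing discs, was one of the 2 members with every null-labelled library below every control. It had 188, 195, and 190 FPKM in the controls and 187, 144, and 168 FPKM in the null-labelled libraries. The gap between control replicate 1 and null-labelled replicate 1 was far smaller than the spread among the null-labelled libraries, and the adjusted p from limma was 0.643. *Cdhr1*, a photoreceptor cadherin of the same region, showed the same library pattern around a log2 fold change of -0.07 (95% interval -0.42 to 0.29): 207, 271, and 208 FPKM in the controls and 266, 205, and 186 FPKM in the null-labelled libraries. Control replicate 2 and null-labelled replicate 1 were its 2 highest libraries. *Tulp1*, a tubby-like protein needed for delivery of proteins to the outer segment, was among the steadiest and most abundant members, at 462 ± 13.8 FPKM in the controls and 448 ± 36.1 FPKM in the null-labelled libraries.

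Of the 6 genes of the visual cycle and the interphotoreceptor matrix, 5 had log2 fold changes below 0, and the median was -0.37. *Rdh12* (chr12:79208914-79222665, GRCm38) encodes a retinol dehydrogenase that clears retinaldehyde in photoreceptors. It had 80.7, 92.3, and 89.0 FPKM in the controls and 87.02, 49.01, and 57.6 FPKM in the null-labelled libraries. Null-labelled replicates 2 and 3 lay well below the controls and replicate 1 within them, for a log2 fold change of -0.48 (SE 0.19, adjusted p = 0.586 from limma). *Abca4*, the flippase that moves retinoid out of the discs, had 71.1, 101, and 82.0 FPKM in the controls against 88.3, 50.1, and 56.0 FPKM. *Rdh8*, another retinol dehydrogenase of the outer segment, had 23.0, 33.4, and 22.7 FPKM against 32.0, 17.4, and 16.1 FPKM. *Abca4* and *Rdh8* had log2 fold changes of -0.41 and -0.32, and in both of them control replicate 2 and null-labelled replicate 1 were the highest libraries.

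The matrix genes were split. *Impg1*, a proteoglycan of the matrix around the outer segments, had 33.4, 48.0, and 34.3 FPKM in the controls and 43.4, 21.9, and 23.9 FPKM in the null-labelled libraries. Its range over the 6 libraries was 2.2-fold. *Impg2*, its relative, stayed between 79.2 and 80.1 FPKM in the controls and between 66.8 and 84.7 FPKM in the null-labelled libraries. *Rbp3*, which encodes the retinoid carrier of the matrix, was the exception to the direction of the group: it had 383, 478, and 361 FPKM in the controls and 501, 478, and 376 FPKM in the null-labelled libraries. Null-labelled replicate 2, the lowest library for most members, was among the high ones for *Rbp3*, and the log2 fold change was 0.15 (95% interval -0.18 to 0.48).

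The widest differences between libraries were found among the 7 genes of guanylate cyclase and calcium control of phototransduction. Their log2 fold changes had both signs, as in some other groups. *Slc24a1* (chr9:64922861-64951607, GRCm38), the sodium/calcium-potassium exchanger of rods, had 6.08, 14.98, and 7.04 FPKM in the controls and 10.5, 2.47, and 4.24 FPKM in the null-labelled libraries. Its highest and lowest libraries differed 6.06-fold, the widest range among the members. Because control replicate 2 and null-labelled replicate 1 were both high, the log2 fold change of -0.83 had a standard error of 0.51 (adjusted p = 0.697 from limma). *Grk1* (chr8:13405081-13421951, GRCm38), the kinase that phosphorylates active rhodopsin, had 45.6, 56.7, and 46.4 FPKM in the controls and 49.9, 25.4, and 27.2 FPKM in the null-labelled libraries. Null-labelled replicates 2 and 3 stood close together below the controls, and replicate 1 fell among them, for a log2 fold change of -0.60 (SE 0.23, adjusted p = 0.586 from limma). *Rcvrn*, the calcium sensor that restrains this kinase and that also marks a subset of OFF cone bipolar cells, had 148, 224, and 157 FPKM against 201, 105, and 119 FPKM. Its log2 fold change was -0.35, with a 95% interval from -0.91 to 0.21.

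**Figure D3:**
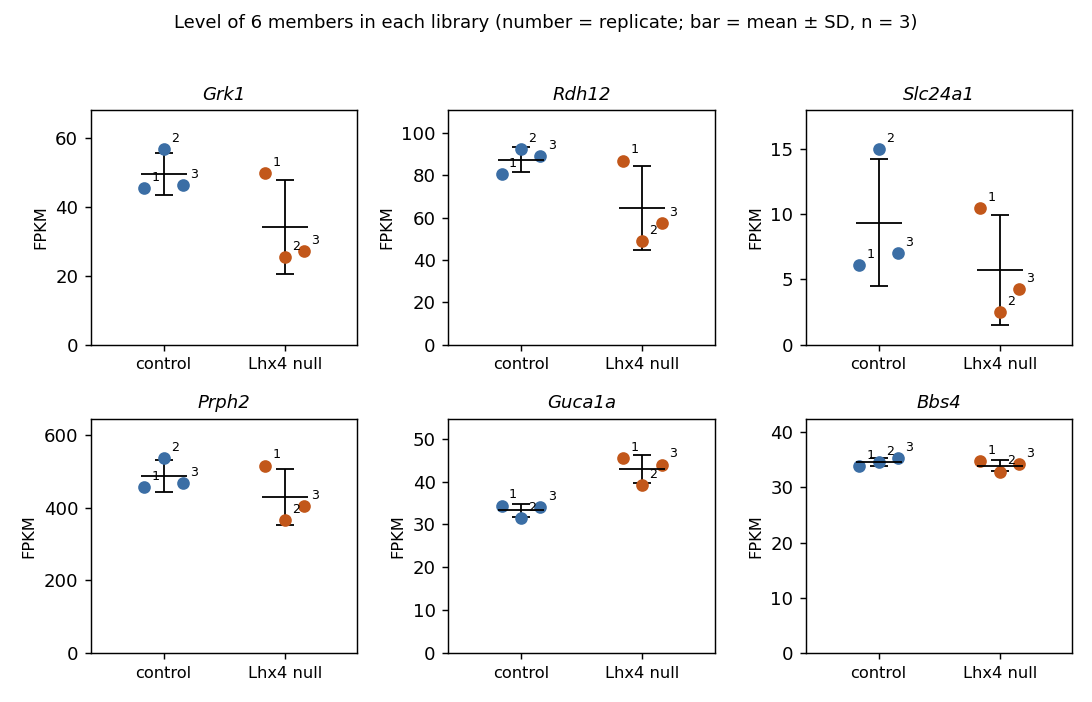
FPKM (y axis, from 0) of *Grk1*, *Rdh12*, *Slc24a1*, *Prph2*, *Guca1a*, and *Bbs4* in each library; points are numbered by replicate, and bars give the mean ± SD of 3 libraries. Null-labelled replicate 1 sits at control level for *Grk1*, *Rdh12*, and *Prph2*, all 3 null-labelled libraries lie above the controls for *Guca1a*, and *Bbs4* spans a narrow range in both groups.

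The cyclases and their activators had log2 fold changes of opposite sign. *Gucy2e* and *Gucy2f* encode the membrane guanylate cyclases of photoreceptors. *Gucy2e* had 25.3, 30.6, and 24.8 FPKM in the controls and 27.1, 18.5, and 19.9 FPKM in the null-labelled libraries (log2 fold change -0.31, adjusted p = 0.641 from limma). *Gucy2f* was the member with the lowest mean, with 4.09, 5.45, and 4.54 FPKM against 4.46, 1.76, and 3.02 FPKM. Its log2 fold change was -0.68 (SE 0.29, adjusted p = 0.609 from limma), and it spanned 3.1-fold over the libraries. *Guca1a* and *Guca1b* encode the activating proteins that couple these cyclases to calcium, and they are neighbours on chromosome 17 of GRCm38. *Guca1b* lies from 47385393 to 47392967 on the plus strand and *Guca1a* from 47394558 to 47400584 on the minus strand, with 1590 bases between their 3′ ends.

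*Guca1a* had 34.4, 31.4, and 33.9 FPKM in the controls and 45.5, 39.2, and 43.9 FPKM in the null-labelled libraries. The null-labelled libraries all lay above the controls. The means were 33.2 ± 1.59 FPKM (SD, n = 3) and 42.9 ± 3.30 FPKM, and their ratio of 1.29 exceeded the range within either group. Its log2 fold change was 0.36 (SE 0.079, 95% interval 0.18 to 0.55, unadjusted p = 0.00165 and adjusted p = 0.206 from limma). *Guca1b* had 4.34, 4.97, and 4.24 FPKM in the controls and 7.59, 4.32, and 5.76 FPKM in the null-labelled libraries, where replicate 2 sat with the controls. Its log2 fold change was 0.34 (SE 0.19, adjusted p = 0.686 from limma), and it joined *Guca1a* at an unadjusted p under 0.05 in the fit without null-labelled replicate 2.

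The 4 chaperones and carriers of outer segment proteins were all slightly below 0, with a median log2 fold change of -0.13, and none had an unadjusted p under 0.05. *Aipl1*, a chaperone for the rod phosphodiesterase, followed the pattern of the outer segment genes: 84.1, 115, and 83.1 FPKM in the controls and 102, 64.1, and 69.7 FPKM in the null-labelled libraries. *Unc119*, the carrier of acylated cargo such as transducin, had the highest mean of all members. Its values were 545, 522, and 555 FPKM in the controls and 516, 482, and 478 FPKM in the null-labelled libraries, so the groups did not overlap. The ratio of means was 0.91, and the log2 fold change was -0.14 (SE 0.081, adjusted p = 0.695 from limma). *Pde6d*, the carrier of prenylated cargo, and *Arl3*, the GTPase that releases cargo from both carriers, had log2 fold changes of -0.07 and -0.12, and each varied by no more than 1.26-fold over the libraries.

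The 5 genes of the connecting cilium had log2 fold changes from -0.20 to -0.07, none at an unadjusted p under 0.05. *Rpgrip1*, which anchors the GTPase regulator RPGR in the connecting cilium, had 493, 520, and 493 FPKM in the controls and 542, 429, and 472 FPKM in the null-labelled libraries. In GENCODE vM21, 8.7% of its exon bases are shared with the neighbouring *Supt16*, and the share was 7.58% for *Cep290*. Whether counting used strand was not given in the sources used here. *Rpgr* itself and *Cep290*, a large scaffold of the transition zone, differed from most members in which libraries were low. *Rpgr* had 27.5, 21.4, and 27.8 FPKM in the controls and 19.9, 19.6, and 29.2 FPKM in the null-labelled libraries. *Cep290* had 39.0, 34.0, and 38.4 FPKM against 32.5, 26.5, and 38.7 FPKM. For both genes, control replicate 2 was the lowest control and null-labelled replicate 3 the highest null-labelled library, an order that *Pde6d*, *Arl6*, and *Kif3a* shared. *Rpgr* and *Cep290* were lower at an unadjusted p under 0.05 in limma without null-labelled replicate 3. *Fam161a*, a microtubule-binding protein of the cilium, had 71.4, 79.5, and 67.0 FPKM against 81.0, 52.0, and 61.8 FPKM. *Lca5*, which links the cilium to intraflagellar transport, stayed between 21.5 and 25.3 FPKM in all 6 libraries.

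Genes of the BBSome and of intraflagellar transport, which serve cilia in many cell types, had log2 fold changes near 0, from -0.17 to 0.09. The BBSome subunits *Bbs1*, *Bbs2*, *Bbs4*, and *Bbs7* and *Arl6*, the GTPase that recruits the complex to membranes, had a median log2 fold change of -0.03. *Bbs4* had 33.9, 34.6, and 35.4 FPKM in the controls and 34.7, 32.9, and 34.2 FPKM in the null-labelled libraries. It was the steadiest member, with a range of 1.08-fold, and its 95% interval ran from -0.17 to 0.12 on the log2 scale. *Bbs2* had a log2 fold change of 0.01 (95% interval -0.15 to 0.17), and *Bbs1* one of 0.00 (SE 0.13), signs that turned with the scaling. *Bbs7* was the exception in its spread: 39.3, 48.1, and 43.7 FPKM in the controls and 49.1, 31.6, and 37.4 FPKM in the null-labelled libraries. *Arl6* had 96.4 ± 5.80 FPKM in the controls and 90.7 ± 10.6 FPKM in the null-labelled libraries.

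*Ift88*, of the anterograde transport complex, had 17.5 ± 0.740 FPKM (SD, n = 3) in the controls and 16.9 ± 2.35 FPKM in the null-labelled libraries. *Ift140*, of the retrograde complex, had 11.3 ± 1.24 FPKM and 12.1 ± 2.20 FPKM. *Kif3a*, a motor subunit of kinesin-II, ranged from 31.2 to 35.4 FPKM over all libraries. Their log2 fold changes were -0.06, 0.09, and -0.04. *Crb1*, an apical polarity protein at the outer limiting membrane that Müller glia also express, had 30.1, 36.4, and 30.4 FPKM in the controls and 30.9, 29.7, and 25.2 FPKM in the null-labelled libraries (log2 fold change -0.17, adjusted p = 0.698 from limma).

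The size of change that these libraries could show differed between the roles. Across the members, the 95% interval of the log2 fold change excluded a 2-fold change for 34 of 38 members and a 1.5-fold change for 26. Among the 10014 genes that averaged 3.89 FPKM or more, the mean of the lowest member, the shares were 98.7% and 92.5%. The members were more variable than most genes of that level: 7 of 38 ranged over more than 2-fold across the libraries and 2 over more than 3-fold, against 2.13% and 0.549% of those genes. Their median standard deviation within a group was 0.21 on the log2 scale, against 0.12. All 7 of the more variable members (*Abca4*, *Rdh8*, *Impg1*, *Gucy2f*, *Slc24a1*, *Rcvrn*, and *Grk1*) belong to the visual cycle and matrix or the cyclase and calcium groups.

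The swing between libraries was shared with other rod genes and ran against genes of dividing cells. The 20 members of outer segment structure, visual cycle, and calcium control had median deviations of 0.01, 0.27, and 0.04 in the controls and 0.25, -0.38, and -0.26 in the null-labelled libraries, on the log2 scale. The 16 rod genes, none of them a member, had 0.04, 0.28, and 0.07 and then 0.15, -0.42, and -0.22. The 14 members of the cilium, BBSome, transport, and polarity groups moved the same way over a narrower range, from -0.16 to 0.08. A list of 12 genes of cycling progenitors had -0.11, -0.63, and 0.07 in the controls and -0.49, 0.80, and 0.29 in the null-labelled libraries. All 12 were detected, none was at 0 in all libraries, and they summed to 119, 92.6, and 127 FPKM in the controls and 96.7, 182, and 144 FPKM in the null-labelled libraries. The libraries with the highest sums of cycling genes thus had the lowest levels of outer segment genes, and the part of this in the differences above was not tested. Another list held 13 photoreceptor transcription factors, 2 of which are also in the rod list, while *Thrb* and *Rxrg* are also in a list of cone genes. Its median deviations varied less, from -0.06 to 0.11. Single factors had log2 fold changes from -0.19 to 0.85, so these medians do not describe each factor.

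**Figure D4:**
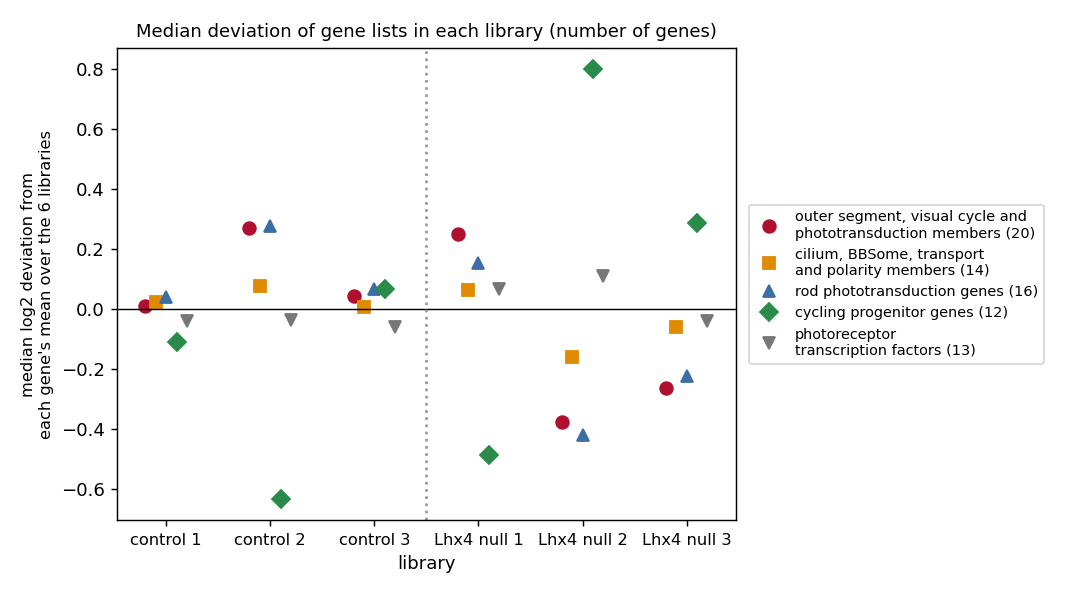
Median log2 deviation from each gene's mean over the 6 libraries (y axis) for lists of members, rod, cycling progenitor, and photoreceptor transcription factor genes (symbols; number of genes in the key) in each library (x axis). Outer segment members and rod genes are high in control replicate 2 and null-labelled replicate 1 and low in null-labelled replicates 2 and 3, cycling genes run the other way in these 4 libraries, and the transcription factors stay near 0.

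Rod genes themselves had log2 fold changes like those of the outer segment members. Of the 16, 15 were below 0, with a median of -0.28, *Gngt1*, a transducin gamma subunit, was lower at an unadjusted p under 0.05, and 0 passed after adjustment in limma. *Pde6a*, the rod phosphodiesterase subunit, and *Gnat1*, rod transducin, were the lowest, at -0.69 and -0.63. *Nrl*, the factor that sets rod fate, was at -0.05, and *Nr2e3*, its target, at 0.10. Cone genes went the other way for the most part. Of 12, 9 were above 0, with a median of 0.29. At an unadjusted p under 0.05 in limma, 5 were higher and 2 lower, where 4.6% and 3.55% of all genes tested were. The short-wavelength opsin *Opn1sw* was higher by 0.88 (adjusted p = 0.0306 from limma). *Arr3* and *Opn1mw*, cone arrestin and the middle-wavelength opsin, were the 2 lowest, at -1.27 and -1.77.

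Genes of the same pathways that are not members were tested beside them. The 4 lists held 36 other outer segment, visual cycle, and photoreceptor disease genes, 9 other BBS genes, 26 other intraflagellar transport genes, and 33 other genes of the transition zone and basal body. Of these 104 genes, 62 had log2 fold changes below 0 and 42 above, with a median of -0.04. The lists differed: 8 of the 9 other BBS genes were below 0, with a median of -0.15, like that of all members. Medians of the other lists, in the order above, were -0.04, -0.03, and -0.01. At an unadjusted p under 0.05 in limma, 6 of the 104 were lower and 5 higher, where 3.55% and 4.6% of all genes tested were, and 0 passed after adjustment. *Cerkl*, a retinal degeneration gene, had 51.3, 42.5, and 51.0 FPKM in the controls and 35.8, 19.2, and 43.7 FPKM in the null-labelled libraries, for a log2 fold change of -0.63 (SE 0.26, adjusted p = 0.605 from limma). Control replicate 2 was its lowest control and null-labelled replicate 2 its lowest library. *Adgrv1*, a large adhesion receptor of the periciliary membrane, was higher in every null-labelled library, at 8.32, 8.89, and 8.88 FPKM against 10.4, 11.5, and 9.97 FPKM (adjusted p = 0.468 from limma). *Gngt1* and, of the amacrine list, the genes beyond its 2 lowest and 2 highest, *Tfap2b* among them, were named after their values were seen.

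Among the other lists, *Bbs10*, a chaperonin-like assembly factor of the BBSome, was at -0.36, and *Wdpcp* at 0.18. *Ttc21b*, of the retrograde transport complex, was at -0.32 and *Wdr60* at -0.24, and the highest were *Tulp3*, at 0.16, and *Ift52*, at 0.21. In the transition zone list, *Tmem237* and *Cc2d2a* were the lowest, at -0.26 and -0.25, and *Nek8* was at 0.28. *Rpe65*, the visual cycle enzyme of the pigment epithelium, was at 0.30, from levels between 0.457 and 1.61 FPKM.

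Other cell types also differed between the groups, beside the members. Of 20 bipolar genes, 18 were below 0 and 9 passed after adjustment in limma, with summed levels of 754 to 952 FPKM in the controls and 520 to 580 FPKM in the null-labelled libraries. The 15 genes of pigment epithelium and melanocytes summed to 66.6 to 98.0 FPKM in the controls and 97.7 to 159 FPKM in the null-labelled libraries, with 8 higher at an unadjusted p under 0.05. Summed levels were higher in all 3 null-labelled libraries than in all controls for the Müller glia list (859 to 946 against 986 to 1040 FPKM) and the vascular and connective tissue list (90.9 to 113 against 120 to 149 FPKM). In the vascular list, however, 7 of the 11 genes tested were below 0, with a median of -0.15. The endothelial marker *Pecam1* was lower and *Kdr*, *Fn1*, and *Col1a2* were higher at an unadjusted p under 0.05. After adjustment in limma, 1 gene of this list passed. The cone list also separated the groups, at 722 to 864 against 932 to 1057 FPKM. Lens genes summed to 2.93 to 28.2 FPKM in the controls and 2.73 to 15.6 FPKM in the null-labelled libraries and were highest in control replicate 2 and null-labelled replicate 2. The summed levels of the amacrine, ganglion cell, horizontal cell, and microglia lists overlapped between the groups. Single genes of these lists still differed at an unadjusted p under 0.05 in limma: 4 of 14 amacrine genes (*Pax6*, *Tfap2b*, *Tfap2a*, and *Gad2*) were higher and 1 lower, and 1 gene of each of the other lists was higher. At that p, 3.55% of all genes tested were lower and 4.6% higher, the shares beside each count in this paragraph. None of these lists held a gene at 0 in all 6 libraries, and the part of these differences in the values of the members was not tested.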

How the data were processed

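RNA-seq of P7 retinas from 3 control and 3 *Lhx4* null mice was analysed. Libraries of the P6 stage are not analysed here. The authors aligned paired-end reads by Tophat, and the deposited table gives FPKM for each gene as estimated by Cufflinks. The submitters' processing notes name TopHat2, Cufflinks, and GRCm38, while versions, annotation, and strand were not given in the sources used here. Of the value columns, 0 were left unused.

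Genes that averaged 0.1 FPKM or more (15200) were compared as log2(FPKM + 0.1), null minus control, in limma 3.58.1 (R 4.3.3) using lmFit and eBayes, with a trend and no covariates. Tests were two-sided, adjustment was by Benjamini-Hochberg, and intervals cover 95%. Changes of low genes are understated on this scale. FPKM carry no counts, so no count model was fitted. Relative depth came from 60 to 151 genes per pair of libraries among 2154 low genes. In values simulated for this comparison, with 200 of 15200 genes changed 2-fold, 71.5% of the changed genes and 0 genes of a set without change were called, and unchanged genes made up 4.67% of calls. The simulated noise was independent between genes, unlike the swing that many members shared, so these rates may not hold for the members. Genes were placed by Ensembl identifier in GENCODE vM21 (GRCm38), and promoters were from RefSeq (GRCm38.p6). Python 3.11.15 with matplotlib 3.10.9 drew the plots.

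The members and gene lists were chosen with earlier results of these data known. The genes named were all members, *Lhx4*, and, of each list, genes past the adjusted threshold or the 2 lowest and 2 highest, of which those that bear on the members are given. Of the genes that this rule names, some are not reported here. Other pseudocounts, filters, scalings, variance models, a replicate block, and each library left out in turn were tried.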

Additional observations from a re-analysis of the deposited data

How the results depend on the processing

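The log2 fold change of each member and of *Lhx4* was recomputed under 14 alternatives. Of the values, 529 kept their direction and their side of the adjusted threshold, 1 (*Grk1* without null-labelled replicate 1) passed it, and 16 changed sign. Without a filter on low values, and with eBayes without a trend, 0 members were lower at an unadjusted p under 0.05 in limma against 4, while 716 of 21744 and 562 of 15200 genes were lower, and *Guca1a* was still higher. The cause was not tested. With 1 library left out in turn, from 0 to 16 members were lower and from 1 to 2 higher at that p, where 306 to 916 of all 15200 genes were lower and 379 to 1066 higher, 0 to 1 passed after adjustment, and the median log2 fold change lay between -0.20 and -0.06. *Bbs1* was at -0.00943 with median of ratios scaling and -0.00383 with quantile normalization, and *Bbs2* at -0.0051 and -0.00115. Leaving out single libraries moved *Bbs1* between -0.123 and 0.12, *Bbs2* between -0.0373 and 0.045, *Cdhr1* between -0.216 and 0.0619, *Impg2* between -0.157 and 0.0138, *Rpgrip1* between -0.158 and 0.011, *Arl6* between -0.154 and 0.00683, *Ift88* between -0.154 and 0.048, and *Ift140* between -0.0479 and 0.201. With the replicate block, 3 members were lower and 1 higher at an unadjusted p under 0.05, against 554 and 608 of all genes, 0 passed after adjustment, and the median was -0.15. Deviations of same-numbered libraries correlated at -0.13, -0.00 and 0.16. The labels do not say whether the numbers pair the mice, and 3 correlations over all genes cannot settle it. Depth was known only between libraries, and every control was deeper than every null-labelled library, so depth and genotype cannot be told apart.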
